A study of Mus musculus with 2 samples.

Results

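The expression of 9 genes of activin and transforming growth factor beta (TGF-beta) signaling was examined in tumor mononuclear phagocytes (TMPs). The genes were Inhba, Tgfb1, Tgfbr1, Tgfbr2, Tgfbi, Acvr1b, Acvr2a, Smad7 and Smad3, found by their symbols among the 27998 genes listed in each library, and all 9 were present. They were taken by name as genes of the pathway, with no limit on their values. The TMPs were MerTk+ CD64+ cells sorted from dissociated B16 melanoma tumors grown in C57Bl/6 mice, with 1 single-cell library from Fcmr+/+ mice and 1 from mice lacking Fcmr (Fcmr-/-), the receptor that binds soluble IgM. Both groups carried the same transplanted melanoma and passed through the same digestion and sort, and the number of mice behind each library is not given in the sources used here. Because each genotype had 1 library, genotype and library cannot be told apart and no test between them was possible.

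Levels are given as CPM, the share of a gene among all unique molecular identifiers (UMIs) of a set of cells, scaled to 1000000. After the limits on genes and mitochondrial UMIs, 6352 Fcmr+/+ cells with 128408544 UMIs and 7999 Fcmr-/- cells with 124630621 UMIs were kept. The median cell held 17973.5 UMIs in the Fcmr+/+ library and 12911 in the Fcmr-/- library, so shares of cells with a UMI were compared after every cell was thinned to 5000 UMIs. No kept cell had fewer. The libraries shared 73 cell barcodes. Intervals are exact 95% intervals, Poisson for levels and Clopper-Pearson for shares, and cover counting error only. Fcmr itself had 7 UMIs in the Fcmr+/+ cells and 6 in the Fcmr-/- cells, too few to check the labels. Mertk had 62.8 and 48.7 CPM and Fcgr1, which encodes CD64, 250.4 and 394.3 CPM, and the 9 macrophage markers together had 16452 and 14552 CPM, so macrophage markers were plentiful in both libraries. Markers of other cells that the gate could hold were low beside these. The summed level of 7 T and NK cell markers was 1.11 CPM in Fcmr+/+ and 15.6 CPM in Fcmr-/- cells, that of 6 neutrophil markers 55.6 and 121.5 CPM, and that of 6 melanoma markers 40.6 and 64.1 CPM. Those of 7 fibroblast markers were 1.36 and 1.2 CPM, of 8 dendritic cell markers 8.82 and 13.9 CPM, of 4 endothelial markers 6.45 and 11.9 CPM, of 4 B cell markers 12.4 and 10.4 CPM, and of 4 mast cell markers 0.202 and 0.530 CPM.

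Activins are dimers of inhibin beta subunits, and Inhba encodes the subunit of activin A. Activin and TGF-beta ligands each bring together a type II receptor, which binds the ligand, and a type I receptor, which then phosphorylates SMAD2 and SMAD3 so that they enter the nucleus with SMAD4. Smad7, itself induced by this signal, blocks the type I receptors. In tumors, TGF-beta is known as a regulator of macrophage function and of T cells, and activin A is made by macrophages after inflammatory stimuli.

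Inhba was the member that differed most between the libraries and between cell states. The start of its gene is shown beside that of Tgfbi, a member known as a target of SMAD signaling. Both lie on chromosome 13. Inhba (ENSMUSG00000041324) runs on the plus strand from 16011851 to 16031621 and Tgfbi (ENSMUSG00000035493) on the plus strand from 56609523 to 56639562 of GRCm38. Each window of 300 bases, from RefSeq on GRCm38.p6, holds 250 bases before the start of a RefSeq transcript and 50 after it. For Tgfbi this start lies downstream of the gene start given above, which is that of the GENCODE annotation. Capitals mark the letters CAGAC, the core that SMAD proteins are known to bind, on either strand.
Inhba, chr13:16011601-16011900, plus strand: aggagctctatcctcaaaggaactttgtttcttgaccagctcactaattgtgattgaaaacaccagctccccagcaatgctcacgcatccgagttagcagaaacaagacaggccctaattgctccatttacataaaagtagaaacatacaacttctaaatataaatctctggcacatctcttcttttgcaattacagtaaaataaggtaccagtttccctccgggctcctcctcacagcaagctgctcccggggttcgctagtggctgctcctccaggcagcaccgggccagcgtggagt
Tgfbi, chr13:56609336-56609635, plus strand: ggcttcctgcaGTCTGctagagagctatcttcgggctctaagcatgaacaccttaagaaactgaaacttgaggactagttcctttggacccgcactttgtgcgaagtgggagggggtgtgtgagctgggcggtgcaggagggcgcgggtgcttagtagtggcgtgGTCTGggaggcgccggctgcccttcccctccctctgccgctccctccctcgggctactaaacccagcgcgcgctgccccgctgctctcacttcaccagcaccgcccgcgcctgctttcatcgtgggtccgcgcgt
The Tgfbi window held 2 such matches, beginning at bases 12 and 166 of the window, both on the opposite strand. The Inhba window held none, and neither window held TGANTCA (AP-1), ACGTG (the core of the hypoxia response element) or TGACGTCA (the cyclic AMP response element). Of 32851 mouse promoter windows of the same length, 49.6% held CAGAC, 7.81% TGANTCA, 19.6% ACGTG and 1.79% TGACGTCA. These matches describe the letters only.

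Among the ligands, Inhba was higher in Fcmr-/- TMPs and Tgfb1 was close to level. Inhba had 26.2 CPM (25.3 to 27.1, 3367 UMIs) in the Fcmr+/+ library and 90.0 CPM (88.3 to 91.7, 11214 UMIs) in the Fcmr-/- library. The Fcmr-/- level was 3.43 times the Fcmr+/+ level (3.30 to 3.57), a log2 ratio of 1.74 after 1 CPM was added to each level. Tgfb1 (ENSMUSG00000002603, chromosome 7, 25687002 to 25705077, plus strand), which encodes the main TGF-beta of immune cells, had 199.6 CPM (197.1 to 202.0) in Fcmr+/+ and 182.9 CPM (180.6 to 185.3) in Fcmr-/- cells, a log2 ratio of -0.12. Inhba was the 1 of 8 members with at least 5 CPM in either library that lay at least 1.5-fold higher in Fcmr-/- cells, where 2.40% of 8701 genes did. No member lay 1.5-fold lower, where 1.69% of genes did. The median log2 ratio of those 8 members was -0.17 and that of all genes tested 0.0023.

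The Inhba difference was carried both by more cells with a UMI and by more UMIs in those cells. Thinned to 5000 UMIs, 6.93% of Fcmr+/+ cells (6.31 to 7.58) and 16.2% of Fcmr-/- cells (15.4 to 17.1) held an Inhba UMI. Before thinning the shares were 12.7% and 24.0%. Thinned cells with Inhba held 2.83 UMIs of it on average in the Fcmr+/+ library and 4.02 in the Fcmr-/- library, and cells with 10 or more numbered 21 and 132, or 0.331% and 1.65% of cells. Inhba transcripts were thus gathered in a minority of TMPs. Of the thinned cells with Inhba, 440 in Fcmr+/+ and 1299 in Fcmr-/-, 196 and 763 held 2 or more UMIs of it. Had the same thinned UMIs been spread over all cells at 1 Poisson rate, 17.8% of Fcmr+/+ and 47.9% of Fcmr-/- cells would have held one. The tenth of cells with the most Inhba UMIs held 94.9% of all its UMIs in Fcmr+/+ and 84.8% in Fcmr-/- TMPs, and single cells reached 91 and 79 UMIs. No sorted cell type here is known to lack Inhba and so give its share from free RNA. The lowest share in any cluster of cells was 0.651% in Fcmr+/+ and 1.28% in Fcmr-/- cells.

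Cells with an Inhba UMI were shallower than cells without one, with a median of 12713 against 18321.5 UMIs in Fcmr+/+ and 9994 against 13494.5 UMIs in Fcmr-/- TMPs. In 4 groups of cells of like depth, Inhba was higher in Fcmr-/- cells each time, but by less than the log2 ratio of 1.74 over all cells. The shallowest quartile of all cells held 1073 Fcmr+/+ and 2514 Fcmr-/- cells. There Inhba had 104.1 CPM in Fcmr+/+ and 242.9 CPM in Fcmr-/- cells, a log2 ratio of 1.21. In the next quartiles the log2 ratio was 1.18 and 1.34. In the deepest quartile Inhba had 16.2 and 52.4 CPM, a log2 ratio of 1.64. Without the cells that held 2 or more UMIs of markers of other cell types, which left 3079 Fcmr+/+ and 3266 Fcmr-/- cells, the log2 ratio of Inhba was 1.49. All 7 detected T and NK cell markers, all 6 neutrophil and all 6 melanoma markers were higher in Fcmr-/- cells, and the part that such cells have in the remaining difference was not tested.

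The 4 receptors differed little between the libraries. Tgfbr2 (ENSMUSG00000032440, chromosome 9, 116084293 to 116175360, minus strand), the type II receptor that binds TGF-beta, had 72.9 CPM (71.4 to 74.4) in Fcmr+/+ and 61.0 CPM (59.7 to 62.4) in Fcmr-/- cells, a log2 ratio of -0.25. Its type I partner Tgfbr1 (ENSMUSG00000007613, chromosome 4, 47353222 to 47414931, plus strand) had 62.4 CPM (61.0 to 63.8) and 53.9 CPM (52.6 to 55.2), a log2 ratio of -0.21. Both TGF-beta receptors were lower in Fcmr-/- cells by more than counting error and by less than 1.5-fold. With every cluster of cells given equal weight, the log2 ratio was -0.02 for Tgfbr2 and -0.08 for Tgfbr1. From the shallowest to the deepest quartile of cells, the log2 ratio of Tgfbr2 was 0.15, 0.07, -0.29 and -0.24, so that its direction turned with depth. The type I activin receptor Acvr1b (ENSMUSG00000000532, chromosome 15, 101174067 to 101213684, plus strand) had 7.30 CPM (6.84 to 7.78) and 8.37 CPM (7.87 to 8.89), and was the only member besides Inhba with the higher level in Fcmr-/- cells. The type II activin receptor Acvr2a (ENSMUSG00000052155, chromosome 2, 48814109 to 48903269, plus strand) had 4.82 CPM (4.45 to 5.22) and 4.61 CPM (4.24 to 5.01), under the limit of 5 CPM in both libraries and with overlapping intervals. The activin receptors were therefore read from few UMIs, 937 and 1043 for Acvr1b and 619 and 575 for Acvr2a, and after thinning from 3.40% and 4.2% of cells for Acvr1b and 2.93% and 2.33% for Acvr2a.

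Downstream of the receptors, the target Tgfbi was lower in Fcmr-/- cells and the SMAD genes differed by little. Tgfbi encodes a secreted matrix protein induced by TGF-beta. It had 490.8 CPM (486.9 to 494.6) in Fcmr+/+ and 422.1 CPM (418.5 to 425.8) in Fcmr-/- cells, a log2 ratio of -0.22, and the thinned share of cells with a UMI was 74.4% (73.3 to 75.5) and 67.3% (66.3 to 68.4). Smad7 (ENSMUSG00000025880, chromosome 18, 75367529 to 75395935, plus strand), the inhibitor of the type I receptors, had 20.4 CPM (19.6 to 21.2) and 17.4 CPM (16.7 to 18.2), a log2 ratio of -0.21. Smad3 (ENSMUSG00000032402, chromosome 9, 63646767 to 63757994, minus strand), the transcription factor that both ligand groups activate, had 6.14 CPM (5.72 to 6.59) and 5.86 CPM (5.44 to 6.30), with overlapping intervals. The Tgfbi difference moved with depth, with log2 ratios of -0.65 in the shallowest quartile of cells, -0.72 and -0.29 in the next and -0.01 in the deepest, and that of Smad7 with -0.48, -0.86, -0.51 and -0.07. In the deepest cells both genes thus lay close to level.

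**Figure D1:**
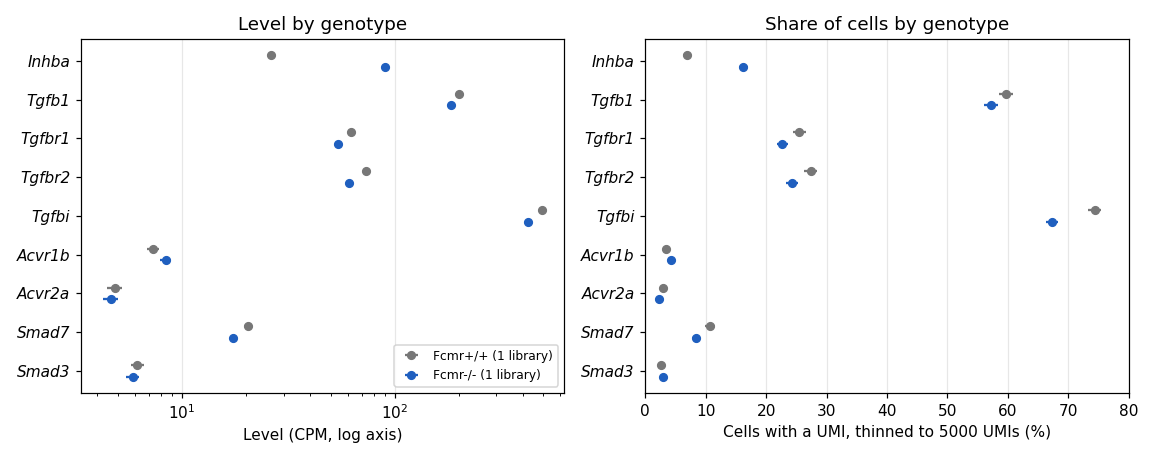
Levels in CPM on a log axis (left) and shares of cells with a UMI after thinning to 5000 UMIs (right) for the 9 genes, with grey points for the Fcmr+/+ library and blue points for the Fcmr-/- library and bars for exact 95% intervals of counting error. Inhba lies far to the right in Fcmr-/- cells (26.2 against 90.0 CPM), while the points of the other genes lie close together.

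The genes were then followed across macrophage states. Both libraries were clustered together without the 9 genes and the other pathway genes, which gave 10 clusters, numbered by size and described here by their leading genes. Cluster 6 was led by Rhov, Sdc1, Adm, Hspb1 and Cd200, had Nos2 and Slc2a1 among its top genes and the highest summed level of 7 hypoxia genes (3524 CPM). Cluster 9 was led by the interferon-induced genes Rsad2, Ifit1bl1, Cmpk2, Ifit3 and Ifit1, and cluster 3 by Cxcl3, Ppbp, Areg, Ccl24 and Il1a, with the highest summed level of 7 inflammatory genes (13056 CPM). Cluster 2 was led by Ccl17, Il1r2, Ifitm1, Ear2 and Ltc4s, with the highest MHC class II level (15031 CPM), cluster 4 by Tfrc, Cnrip1, Gas6, Ednrb and Cela1, with the highest level of 6 scavenger receptor genes (2739 CPM), and cluster 5 by the mitotic genes Cenpf, Nusap1, Prc1, Pbk and Ccna2. Cluster 7 was led by Hbb-bs, Cyp4f18, Acp5, Apoe and Cirbp, cluster 8 by Mfge8, Plpp3, Wfs1, Atp6v0d2 and Gpnmb, and cluster 10 by Adm, Pdgfa, Rassf8, Bhlhe41 and Dct. Cluster 1, led by Iigp1, Serpina3g, Cxcl9, Gbp4 and Ly6a, took 96.1% of its 2430 cells from the Fcmr-/- library and had 95 Fcmr+/+ cells, the fewest of any cluster in either library.

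Inhba separated these states more widely than any other member. Over both libraries it was highest in cluster 9 (272.9 CPM), followed by cluster 6 (250.7 CPM) and cluster 3 (120.4 CPM). It was lowest in cluster 4 (2.98 CPM), a 68.8-fold range on the scale of CPM + 1. In each library alone cluster 6 was the highest, with an interval that overlapped that of cluster 9, so these clusters were not separated. Clusters 3, 6 and 9 together held 24.5% of Fcmr+/+ cells and 60.3% of their Inhba UMIs, and 29.6% of Fcmr-/- cells and 66.3% of their Inhba UMIs. Larger clusters with lower levels also held many Inhba UMIs. Cluster 2 held 772 in Fcmr+/+ cells, against 508 in cluster 3 and 404 in cluster 9. Cluster 1 held 2130 in Fcmr-/- cells, against 2518 in cluster 3, 2566 in cluster 6 and 2356 in cluster 9. Most Inhba UMIs of either genotype thus lay in clusters 3, 6 and 9 together, which were picked for their high Inhba level. The summed level of the 6 neutrophil markers was also highest there, at 171.0 CPM in cluster 3, 191.6 CPM in cluster 6 and 181.2 CPM in cluster 9, against 37.4 to 131.0 CPM in the other clusters, and its part in the pattern was not tested. Of these markers over whole libraries, Mmp8 had the highest level, at 24.8 CPM in Fcmr+/+ and 74.1 CPM in Fcmr-/- cells. Csf3r had 15.7 and 24.1 CPM, S100a8 14.0 and 19.6 CPM, S100a9 0.802 and 3.37 CPM and Retnlg 0.234 and 0.289 CPM. Ly6g had 0 UMIs in the Fcmr+/+ and 3 in the Fcmr-/- library. The summed level of the endothelial markers was highest in clusters 9 (29.2 CPM) and 6 (18.7 CPM), with 8.24 CPM in cluster 3. That of the melanoma markers was 76.0 CPM in cluster 6, below the 148.3 CPM of cluster 10, and 40.4 CPM in cluster 3. Their part in the pattern was not tested either. Clusters 6 and 9 were also shallow, with medians of 10595 and 10233 UMIs in Fcmr+/+ and 8010 and 8577 UMIs in Fcmr-/- cells. Cluster 7 was deeper than both, at 12327 and 9725 UMIs, and had 12.2 CPM of Inhba. The part of depth in the pattern was not tested. In the order of levels over both libraries, clusters 1 and 2, clusters 10 and 8, clusters 8 and 5, and clusters 5 and 7 were neighbors with overlapping intervals.

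Within clusters, Inhba was higher in Fcmr-/- cells in 9 of 10. In cluster 3 it had 38.5 CPM (35.2 to 42.03) in Fcmr+/+ and 210.9 CPM (202.7 to 219.3) in Fcmr-/- cells, the widest gap, at a log2 ratio of 2.42. In cluster 6 it had 149.1 CPM (140.5 to 158.1) and 356.5 CPM (342.8 to 370.6), and in cluster 9 132.6 CPM (120.0 to 146.2) and 333.5 CPM (320.1 to 347.2). The states with the highest Inhba in Fcmr+/+ TMPs were therefore also among the highest in Fcmr-/- TMPs, at more than 2 times the level. Cluster 5, led by mitotic genes, had 4.42 CPM (3.58 to 5.397) and 23.9 CPM (21.7 to 26.2), and cluster 2 33.3 CPM (31.0 to 35.7) and 70.6 CPM (65.9 to 75.7). Cluster 1 had 35.2 CPM (27.4 to 44.6) and 49.98 CPM (47.9 to 52.1), cluster 10 16.6 and 24.5 CPM, cluster 8 6.56 and 19.1 CPM and cluster 4 1.81 and 7.94 CPM. In cluster 7 alone the levels were alike, at 12.4 CPM (10.4 to 14.6) and 11.8 CPM (9.16 to 15.1), and the interval of their ratio ran from 0.702 to 1.29. With every cluster given equal weight, the log2 ratio of Inhba was 1.34 rather than 1.74.

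**Figure D2:**
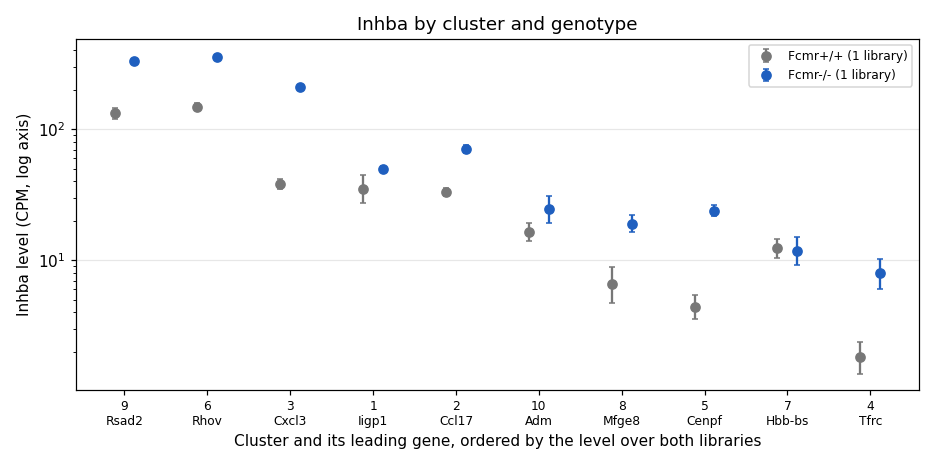
Inhba level in CPM on a log axis in the 10 clusters, each named by its number and leading gene and ordered by the level over both libraries, with grey points for Fcmr+/+ cells, blue points for Fcmr-/- cells and bars for exact 95% intervals of counting error. The blue point lies above the grey one in 9 clusters, and in cluster 7 the points overlap at 12.4 and 11.8 CPM.

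Most other members also differed between clusters. Of the 8 members with at least 5 CPM over both libraries, 6 lay at least 2-fold apart between the highest and lowest cluster, where 39.2% of 8548 genes did. They were Inhba, Smad7, Tgfbi, Tgfbr2, Smad3 and Tgfbr1. At a resolution of 0.4, which gave 6 clusters, Tgfbr1 (1.64-fold) and Smad3 (1.94-fold) fell short of this limit. Of the same 8 members, 2 were higher in Fcmr-/- cells in at least 3 of every 4 clusters. This was a smaller share than the 29.9% of 8548 genes. The 2 were Inhba, in 9 of 10 clusters, and Acvr1b, in 8 of 10. The Acvr1b ratio had an interval above 1 in 2 of those clusters.

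Smad7 shared part of the Inhba pattern. It was highest in cluster 6, at 70.4 CPM (64.5 to 76.6) in Fcmr+/+ and 60.2 CPM (54.6 to 66.1) in Fcmr-/- cells, and lowest in cluster 4, at 7.27 CPM (6.34 to 8.29) and 7.66 CPM (5.77 to 9.97), a 7.95-fold range over both libraries. In cluster 9 it had 41.3 CPM (34.4 to 49.2) in Fcmr+/+ and 24.9 CPM (21.4 to 28.9) in Fcmr-/- cells, its widest gap between the libraries at a log2 ratio of -0.71. Over both libraries Smad7 was second highest in cluster 10 (31.6 CPM), and cluster 7 (29.5 CPM) lay level with cluster 9 (29.9 CPM). Cluster 10 also had the highest summed level of melanoma markers (148.3 CPM), whose part in its Smad7 level was not tested. Inhba was low in clusters 10 and 7, at 18.4 and 12.2 CPM. In cluster 3, which had the third highest Inhba, Smad7 was near its lowest, at 10.8 CPM in each library. The inhibitor and the activin subunit were thus both high in cluster 6. In cluster 3 the subunit alone was high, and only in Fcmr-/- cells (210.9 CPM). In Fcmr+/+ cells Inhba had 38.5 CPM there, with an interval that overlapped that of cluster 1.

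Tgfbr2 ran the other way. It was highest in cluster 4, where Inhba was lowest, at 104.3 CPM (100.7 to 108.0) in Fcmr+/+ and 103.6 CPM (96.3 to 111.3) in Fcmr-/- cells, and lowest in cluster 6, at 28.2 CPM (24.5 to 32.2) and 33.2 CPM (29.1 to 37.7). Tgfbr1 had its highest level over both libraries in cluster 7 (79.2 CPM) and its lowest in cluster 9 (38.8 CPM), a 2.02-fold range. Both TGF-beta receptors thus lay low in clusters 6 and 9, the clusters with the most Inhba. For Tgfbr1 this was not particular to them. Cluster 2 had 42.9 CPM of it (40.7 to 45.1) over both libraries, with an interval overlapping that of cluster 6. In Fcmr-/- cells Tgfbr1 was lowest in cluster 2. The gap between libraries in Tgfbr2 was widest in cluster 3, at 53.6 CPM (49.7 to 57.7) in Fcmr+/+ and 38.2 CPM (34.8 to 41.9) in Fcmr-/- cells, and in cluster 7 the order turned, at 63.9 CPM (59.4 to 68.8) and 79.8 CPM (72.6 to 87.6). For Tgfbr1 it was widest in cluster 2, at 47.7 CPM (44.9 to 50.6) and 33.2 CPM (29.95 to 36.7).

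Tgfbi had its highest level where that of the MHC class II genes was highest. It was highest in cluster 2, at 887.8 CPM (875.7 to 900.0) in Fcmr+/+ and 781.6 CPM (765.6 to 797.9) in Fcmr-/- cells, then in cluster 7 (736.5 CPM over both libraries), and lowest in cluster 8 (155.3 CPM). It was lower in Fcmr-/- cells in 9 of 10 clusters and beyond counting error in each of the 9, most in cluster 8 at 222.0 CPM (210.3 to 234.1) against 114.6 CPM (108.0 to 121.4). In cluster 5 it was slightly higher, at 422.2 CPM (413.6 to 430.9) in Fcmr+/+ and 440.7 CPM (431.2 to 450.3) in Fcmr-/- cells. Tgfb1 varied little, from 149.0 CPM in cluster 6 to 215.3 CPM in cluster 2 over both libraries, a 1.44-fold range, and every pair of neighbors in its order had overlapping intervals. It was lower in Fcmr-/- cells in every cluster but cluster 9, where it had 145.4 CPM (132.2 to 159.6) and 169.6 CPM (160.1 to 179.4). The interval of the ratio lay below 1 in 6 of the other clusters and held 1 in 3.

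For the rarer members only clusters far apart in the order could be separated. Acvr1b ranged from 5.71 to 9.10 CPM over both libraries, Acvr2a from 3.37 to 7.12 CPM and Smad3 from 3.36 to 8.03 CPM, and for all 3 every neighbor in the order overlapped the next. The ends of the order did not overlap for Smad3, at 8.03 CPM (7.12 to 9.03) in cluster 2 and 3.36 CPM (2.52 to 4.39) in cluster 8 over both libraries. Smad3 was highest in cluster 2 in both libraries, at 8.02 CPM (6.91 to 9.26) and 8.06 CPM (6.51 to 9.87). In cluster 6 it had 2.54 CPM (1.53 to 3.96) in Fcmr+/+ and 4.86 CPM (3.39 to 6.76) in Fcmr-/- cells, from 19 and 35 UMIs. Over the 10 clusters, Pearson's r between the log2 levels of the libraries was 0.92 for Inhba, 0.97 for Tgfbi, 0.94 for Smad7 and 0.89 for Tgfbr2, 0.81 for Tgfb1, 0.80 for Tgfbr1, 0.77 for Smad3, 0.57 for Acvr2a and 0.24 for Acvr1b. The points of a library shared its depth and clustering, so these values describe the states only.

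**Figure D3:**
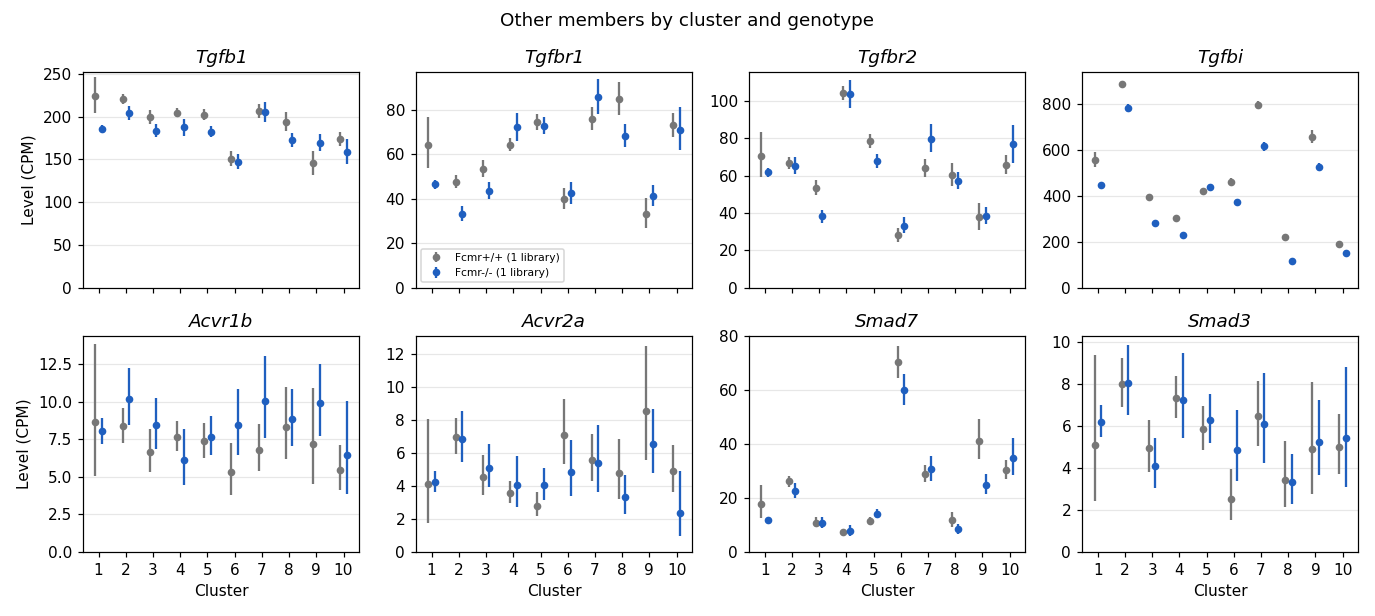
Levels in CPM of the other 8 genes in clusters 1 to 10, with grey points for Fcmr+/+ cells, blue points for Fcmr-/- cells and bars for exact 95% intervals of counting error, each panel with its own axis from 0. Smad7 peaks in cluster 6, Tgfbr2 in cluster 4 and Tgfbi in cluster 2 in both libraries, whereas Acvr1b, Acvr2a and Smad3 have wide, overlapping bars.

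Genes whose levels over the 10 clusters were most like each member were ranked among 5255 genes with at least 20 CPM, by the lower of the r values in the separate libraries. For Inhba they were Slpi, a secreted protease inhibitor (0.94), Eno1, a glycolytic enzyme with a close copy in the mouse genome that may share its reads (0.94), and Prdx6, a peroxiredoxin (0.93). For Tgfbi they were H2-Aa, H2-Eb1 and H2-Ab1, which encode MHC class II chains (0.940, 0.938 and 0.935). For Tgfbr2 they were Pura (0.96), Ctnnd1 (0.96) and Scamp5 (0.95), for Tgfb1 Arpc1b (0.94), Bin2 (0.92) and Phyh (0.91), and for Tgfbr1 Arl2 (0.89), Arhgap19 (0.88) and Gdpd1 (0.88). Each r rests on 10 clusters, and the MHC class II genes of the Tgfbi list took part in the clustering.

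Over single cells, Inhba was found more often with Nos2, Arg1, Il1b and Vegfa and less often with Mrc1 and Folr2. Among thinned cells, 27.9% of Fcmr+/+ cells with a UMI of Nos2, the inducible nitric oxide synthase, held Inhba, against 6.22% of cells without it. In Fcmr-/- TMPs the shares were 43.8% and 12.9%. For Arg1, the arginase of tumor macrophages, they were 10.6% and 3.11% in Fcmr+/+ and 21.6% and 6.72% in Fcmr-/- cells. Inhba was thus more frequent beside both enzymes, in either genotype. For Il1b, the interleukin-1 beta gene, the ratio of the shares was 1.95 in Fcmr+/+ and 3.93 in Fcmr-/- cells. For the hypoxia-induced growth factor Vegfa it was 2.94 and 2.43 and for the elastase Mmp12 2.201 and 1.84. The ratio was also above 1 for Spp1 (1.88 and 1.92), Ifit3 (1.74 and 1.49), Ly6c2 (1.58 and 1.76) and H2-Ab1 (1.76 and 1.33). Ccr2 gave 1.34 and 0.995, and Cxcl9 gave 1.29 and 0.75. The ratio was below 1 in both libraries for the mannose receptor Mrc1, at 0.32 and 0.39, and for the folate receptor Folr2, at 0.44 and 0.54. It was also below 1 for the proliferation marker Mki67, at 0.42 and 0.52. Part of this was shared with the clusters, though ratios to an expected number are not on the scale of ratios of shares. Against the number expected from the shares within each cluster, cells with both Inhba and Nos2 came to 1.71 times in Fcmr+/+ and 1.53 times in Fcmr-/- TMPs. Those with Arg1 came to 1.13 and 1.12 times, those with Ly6c2 to 1.17 and 1.26 times and those with Folr2 to 0.77 and 0.75 times. With Mki67 the ratios within clusters were 0.97 and 0.99, close to 1.

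The receptor Tgfbr2 was more frequent beside Mrc1 and less frequent beside Nos2. It was held by 29.4% of Fcmr+/+ cells with Mrc1 and 15.8% without it, and by 26.7% and 17.3% of Fcmr-/- cells. With Nos2 the shares were 16.3% against 27.7% in Fcmr+/+ and 16.5% against 25.2% in Fcmr-/- cells. Tgfbi was more frequent in cells with the monocyte receptor Ccr2, at 88.6% against 67.7% in Fcmr+/+ and 80.5% against 60.9% in Fcmr-/- cells. It was also more frequent beside the MHC class II gene H2-Ab1, at 82.02% against 65.3% and 73.5% against 52.9%. Smad7 went with Vegfa, at 16.7% against 7.46% in Fcmr+/+ and 10.9% against 6.29% in Fcmr-/- cells, and was rarer in cells with Mki67, at 4.75% against 11.9% and 5.69% against 8.75%. These differences lay partly between clusters, and the ratios to an expected number below are not on the scale of the shares above. Against the number expected within clusters, cells with both genes came to 1.03 times in Fcmr+/+ and 1.06 times in Fcmr-/- TMPs for Tgfbr2 with Mrc1, and to 0.87 times in each for Tgfbr2 with Nos2. The ratios were 1.07 and 1.10 for Tgfbi with Ccr2, 1.05 and 1.04 for Tgfbi with H2-Ab1, 1.23 and 1.12 for Smad7 with Vegfa and 0.76 and 0.91 for Smad7 with Mki67.

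Among the 36 pairs of members, 28 had at least 20 cells expected with both genes in each library, and 1 of them, Inhba with Smad7, was found together in at least 5 cells for every 4 that independent shares would give, in both libraries. It was seen in 97 Fcmr+/+ cells where 47.0 were expected, a ratio of 2.07, and in 160 Fcmr-/- cells where 108.8 were expected, a ratio of 1.47. Within clusters the ratios were 1.34 and 1.15, so the pair did not pass the limit in both libraries. The share of all gene pairs past this limit was not computed. Inhba with Tgfbr2 was found less often than expected, at 0.77 in Fcmr+/+ and 0.71 in Fcmr-/- cells, or 1.03 and 0.86 within clusters. Among the 28 pairs, Acvr1b with Smad7 had the lowest ratios, 0.56 and 0.60, from 13 and 17 cells. The receptor pair Tgfbr1 and Tgfbr2 was found together about as often as independent shares give, at 1.03 and 1.06.

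**Figure D4:**
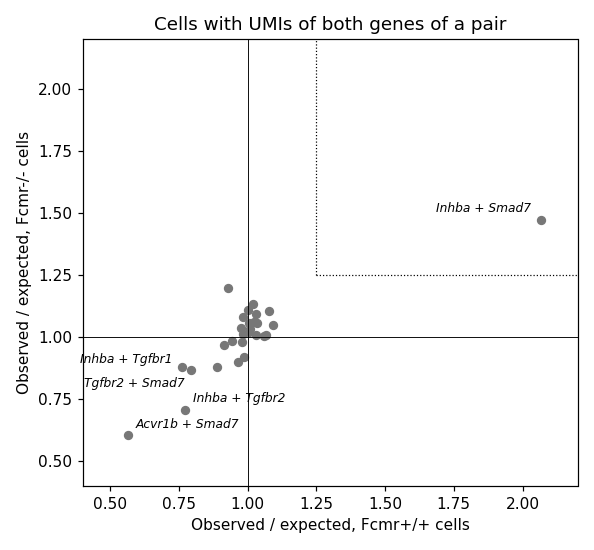
Observed over expected number of thinned cells with UMIs of both genes, for the 28 pairs of members with enough expected cells, in Fcmr+/+ cells on the horizontal axis and Fcmr-/- cells on the vertical axis. Solid lines mark a ratio of 1 and dotted lines the limit of 5 cells for every 4 expected, past which only Inhba with Smad7 lies (2.07 and 1.47).

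The other genes of the pathway were described from a list of 101 found genes, of which 52 had at least 5 CPM in either library. None was 1.5-fold higher in Fcmr-/- cells and 6 were 1.5-fold lower, against the 2.40% and 1.69% of all genes given above, and their median log2 ratio was -0.08. Of the 16 other ligands, 3 passed the limit on levels and 2 were lower. Gdf15, a stress-induced member of the family, had 390.8 CPM in Fcmr+/+ and 226.3 CPM in Fcmr-/- cells (log2 ratio -0.79), and Gdf3 79.1 and 46.3 CPM (-0.76). The inhibin alpha and other beta subunits gave almost no UMIs, with 2 and 0 for Inha, 0 and 2 for Inhbb and none for Inhbc and Inhbe. The interval of a count of 0 reached 0.0287 CPM in Fcmr+/+ and 0.0296 CPM in Fcmr-/- cells. Inhba was thus the inhibin subunit gene with more than a few UMIs in these cells.

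Several genes listed as targets of the SMADs lay lower in Fcmr-/- cells. Of 18 listed, 10 passed the limit, 4 were 1.5-fold lower, none was 1.5-fold higher, and the median log2 ratio was -0.41. These values depend on how genes were assigned to roles. Of the brakes, Skil had a log2 ratio of -0.13, Pmepa1 -0.004 and Bambi 0.23, and of the latency and activation genes Tgm2 had 0.42. Id3 had 85.2 CPM (83.7 to 86.9) in Fcmr+/+ and 47.7 CPM (46.5 to 49.0) in Fcmr-/- cells, and Id1 6.00 CPM (5.59 to 6.44) and 3.31 CPM (3.00 to 3.65). Both encode inhibitors of basic helix-loop-helix factors that BMP and TGF-beta signals are known to induce. Jun, which many stimuli besides TGF-beta induce, had 482.7 and 295.7 CPM. Gdf3, Id3 and Jun were lower in Fcmr-/- cells in 10 of 10 clusters, and Gdf15 and Id1 in 9. The share of all genes lower in as many clusters was not computed. Id1 rested on few UMIs in several clusters, such as 62 in Fcmr+/+ and 3 in Fcmr-/- cells of cluster 4 and 21 and 3 in cluster 10. The other 6 targets that passed lay within 1.5-fold, among them the abundant Junb, at 1229.8 and 1099.0 CPM, and Id2, at 594.2 and 497.4 CPM.

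None of the 6 receptors, 11 SMADs and partners, 13 brakes and 9 latency and activation genes that passed the limit lay 1.5-fold apart. Their median log2 ratios were 0.04, -0.04, -0.11 and -0.02. The type I receptor Acvrl1 came nearest, at 33.5 CPM (32.5 to 34.5) in Fcmr+/+ and 49.7 CPM (48.5 to 51.0) in Fcmr-/- cells. Its ratio was 1.485 (1.43 to 1.54), and it was higher in Fcmr-/- cells in 10 of 10 clusters. Other pathway genes were too, and the share of all genes higher in as many clusters was not computed. Thbs1, whose product can activate latent TGF-beta, was the most abundant of the last group, at 894.9 CPM (889.8 to 900.1) in Fcmr+/+ and 1134.8 CPM (1128.9 to 1140.7) in Fcmr-/- cells, a log2 ratio of 0.34. Over clusters, 29 of 51 other pathway genes with at least 5 CPM over both libraries were 2-fold apart, beside the 39.2% of all genes.

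**Figure D5:**
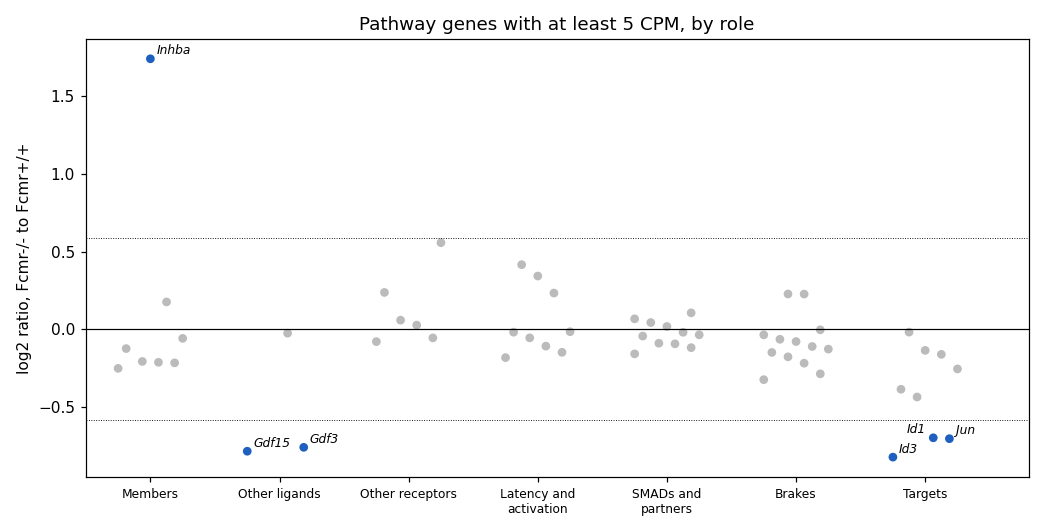
Log2 ratio of the Fcmr-/- to the Fcmr+/+ level for members and other pathway genes with at least 5 CPM in either library, grouped by role, with dotted lines at 1.5-fold and blue points for genes past them. Inhba lies alone above (1.74), and Gdf15, Gdf3, Id1, Id3 and Jun lie below.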

How the data were processed

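Raw UMI counts of each gene in each cell were deposited by the authors for 1 Fcmr+/+ and 1 Fcmr-/- library, made with Cell Ranger from 10x Genomics 3' reads mapped to GRCm38 (mm10). The submitters' processing notes also name Seurat 2.1.0. Kept cells had 200 to 7000 genes and no more than 30% mitochondrial UMIs. The sums of UMIs per library or cluster were turned into CPM, and 1 CPM was added before any log2 ratio. A difference of 1.5-fold or more was counted among genes with 5 CPM or more in either library. The interval of a ratio came from an exact binomial share of the UMIs.

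Cells of both libraries were clustered on 1307 variable genes, without 29 variable genes of the pathway lists, with 10 principal components, 30 neighbors and a Louvain resolution of 0.8 (Seurat 5.3.0, R 4.3.3). No doublet caller was run. The remaining steps ran in Python 3.11.15 (numpy 2.4.6, scipy 1.17.1) and were tested on simulated data. Coordinates were those of GENCODE on GRCm38, and RefSeq promoter windows were taken for 8 of 9 members, without that of Smad7. Named were all members, other pathway genes past 1.5-fold and the 3 most abundant, the 3 genes most like each member with at least 20 CPM, a fixed list of state genes and the 5 leading genes of each cluster. Of the pathway genes past 1.5-fold, 1 target is in the counts but is otherwise not reported here, nor plotted. The other inhibin subunits, Acvrl1, Skil, Pmepa1, Bambi, Tgm2 and Slc2a1, and the neutrophil markers given by name, were chosen after their values were seen. So were the endothelial and melanoma sums given by cluster. Members and lists were chosen with earlier results of these data known. Alternatives covered the pseudocount, scaling, limits on cells and levels, thinning and clustering.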

Additional observations from a re-analysis of the deposited data

How the results depend on the processing

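Of 81 values of members under other pseudocounts, scaling, thinning, limits on cells and cluster weights, 79 had the direction given in the report, and the 2 exceptions were both Smad3, at 0.13 with thinned cells and 0.072 with every cluster at equal weight, against -0.06. The log2 ratio of Inhba ranged from 1.34 to 1.77 over 9 alternatives, and it stayed the 1 member past 1.5-fold under each of 11. The groups of cells of like depth were not among these and gave 1.18 to 1.64. The fold between its highest and lowest cluster was 19.8 at a resolution of 0.4, 41.2 with 20 principal components, 43.2 with genes scaled within each library and 102.8 at a resolution of 1.2. The median log2 ratio over genes used for the other scaling was -0.0026, and the counts of members and of pathway genes past 1.5-fold under it equaled those in the report. Pathway genes 1.5-fold lower numbered 4 with every cluster at equal weight, in place of 6. They numbered 5 without cells with markers of other cell types, with a pseudocount of 5 CPM and with a limit of 20 CPM. Pairs found together numbered 2 without thinning and 0 against expectations within clusters, in place of 1. Members higher in Fcmr-/- cells in at least 3 of 4 clusters numbered 1 in place of 2 with 20 principal components, 1 with members and pathway genes kept for clustering and 1 with thinned cells. The causes were not tested. No paired analysis was possible because each genotype had 1 library. Depth limits Acvr1b, Acvr2a and Smad3, for which neighboring clusters overlapped. Members 2-fold apart between clusters, counted here without the limit on levels, numbered 4 at a resolution of 0.4 and 8 with 20 principal components, in place of 6. The 8 took in Acvr2a (2.21-fold), which lay under the limit of 5 CPM, and left out Tgfb1 (1.41-fold). The spread between mice is not known.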
